A study of Mus musculus with 12 samples.

Results

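The 85 genes described here encode the proteins of the cytosolic ribosome in mouse liver, and they were chosen by name from a table of 55421 genes. A gene was taken where it was annotated as protein coding and its symbol began with Rpl or Rps and a digit or was Rplp0, Rplp1 or Rplp2. The S6 kinases (symbols starting with Rps6k) and symbols holding -ps were left out. The names gave 33 Rps genes and 52 Rpl genes. Rps19bp1 meets the rule although its product is not a subunit of the ribosome, and genes such as Rpsa, Rack1 and Fau encode subunit proteins that the rule does not reach.

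The livers came from wild-type mice that carried E0771 cells, a mouse mammary carcinoma line, in the mammary fat pad. Housing was at 6 °C for libraries 1 to 4, at 22 °C for 5 to 8 and at 29 °C for 9 to 12, and livers were taken on day 21. All 3 groups carried the tumour, so no tumour-free liver is compared here. Both Balb/C and C57Bl6/J appear as hosts in the growth protocol, and the strain of each library is not stated, and sex and age were not stated. Whether the 4 libraries of a group stand for 4 animals is not stated either, so p-values measure only the spread between libraries, which may be technical.

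A ribosome is built from ribosomal RNA and a set of small, mostly basic proteins, of which the Rps products sit in the small (40S) subunit that reads the mRNA and the Rpl products in the large (60S) subunit that joins amino acids. Cells need each protein in about equal molar amounts. In vertebrates most of these mRNAs start with a C followed by a run of pyrimidines, which ties their translation to nutrient signals through mTOR and Larp1. The mouse genome also holds many processed pseudogenes, intronless copies of these mRNAs.

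Library totals ran from 7615585 to 19001126 counts, and 3 counts, taken as the limit that a count of 0 allows, correspond to 0.158 to 0.394 CPM (counts per 1e+06 counts) of the library total. Such limits cover counting error only. The hepatocyte markers of a fixed list summed to between 78980 and 196676 CPM per library, and none of the 8 was at 0. Libraries 1, 7, 8 and 9 held 134 to 248 counts of H2-Ea-ps, a major histocompatibility complex pseudogene, and the other 8 libraries held 0. This split was read from the counts, no label gives it, and the 2 sets are no groups of the study. Libraries 5 and 6, both at 22 °C, stood apart in another way: of their counts 0.667% and 0.605% fell on Gm26917, a gene listed here for RNA quality, beside 1.66% in library 3 and 4.03% to 8.70% in the other 9. Mitochondrial ribosomal RNA took 0.662% to 2.27% of counts in the libraries with H2-Ea-ps counts and 0.0668% to 0.342% in the others. Each temperature comparison below is therefore given from a fit of temperature alone and from a fit with a term for the H2-Ea-ps libraries.

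The ribosomal protein genes took a small and fairly even share of each library. They held 0.173% ± 0.013 of all counts at 6 °C, 0.167% ± 0.022 at 22 °C and 0.192% ± 0.013 at 29 °C (SD, n = 4 libraries each). The lowest share was 0.143% in library 8 and the highest 0.203% in library 10. The 4 libraries with H2-Ea-ps counts lay between 0.143% and 0.175%, below all 8 of the others, which lay between 0.179% and 0.203%. This summed share was not tested.

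Levels differed widely between genes once exon length was taken into account. As mean CPM per kilobase of exon over 12 libraries, Rplp1, an acidic protein of the stalk that recruits elongation factors, stood at 147, Rpl4, which lines the nascent chain exit tunnel, at 144, and Rpl8, which lies close to the catalytic centre, at 85.0. At the other end of the genes that passed the low-count filter were Rpl36al at 0.551, Rpl36a at 0.508 and Rpl21 at 0.471 CPM per kilobase. The 10 genes with most counts held 59.6% of the 287944 counts of all members. The median gene had a mean of 108 counts per library, 34 genes had a mean under 50 and 10 had a mean under 10.

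Of the 85 genes, 75 passed the low-count filter and were tested (29 Rps and 46 Rpl). The 10 that did not pass included genes whose proteins are constitutive parts of every ribosome. Rps16 held 56 counts over all 12 libraries, Rps29 44, Rps23 83, Rpl23a 74, Rpl24 47 and Rpl38 38. The others were copies with restricted expression: Rpl3l, the form of striated muscle, with 7 counts, Rpl39l with 5, Rps27rt with 7 and Rpl10l, a testis form, with 0 counts in each library.

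How far a read can be placed on a single one of these genes differs from gene to gene. Of all 50-base words in a gene's annotated transcripts, a median of 22.7% also occurred in another annotated gene. Both strands were searched, and genes that overlap the member at its own place were included along with copies elsewhere. The share was above 50 percent for 8 members, reached 91.1% for Rps27rt and was 0 for 4 members. It was 60% for Rplp1, which had the highest level, and 34.9% for Rps16, which had one of the lowest. Across the 85 genes the level per kilobase and this share had a Spearman rho of -0.19, and of -0.37 with 100-base words. These are descriptions across genes, which are not independent of each other. The authors' treatment of reads with several matches was not stated, so levels of genes with close copies are uncertain.

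The comparison of 29 °C, close to thermoneutrality for a mouse, with 6 °C asks whether the liver's ribosomal protein transcripts follow the largest step in housing temperature. No single member passed the threshold (adjusted p under 0.05, edgeR quasi-likelihood test with Benjamini-Hochberg adjustment), where 2.53% of the 15006 genes tested did. At an unadjusted p under 0.05 there were 6 members, all higher at 29 °C, by DESeq2 1 member was called (Rpl9) and by limma voom 0, where these tools called 7.97% and 7.4% of all tested genes. That is 8% of the members at an unadjusted p under 0.05, against 19.4% of all tested genes. Of the 75, 59 had a fold change above 0, with a median of 0.27 on the log2 scale, against a median of 0.0005 over all tested genes. Marker lists of other cells also leaned in this comparison: 12 of 12 granulocyte genes were above 0 (median 2.06), 10 of 10 Kupffer cell genes (0.62) and 8 of 9 erythroid genes (1.10). So were 8 of 8 endothelial (0.24), 8 of 10 lymphocyte (0.36), 6 of 8 stellate cell (0.10) and 4 of 5 bile duct genes (0.22). The 8 hepatocyte genes had a median of -0.34. In each of these lists 0 were called, while 1 of 2 tested intestinal genes was called higher. The 1 tested pancreas gene was below 0. The part of these cells in the members' values was not tested.

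The leading gene was Rpl9, a 60S protein near the stalk base. Its levels were 3.02, 3.06, 1.19 and 1.17 CPM at 6 °C and 6.79, 4.49, 2.72 and 6.44 CPM at 29 °C. Most 29 °C libraries lay above the 6 °C libraries, but library 11 fell within their range. The log2 fold change was 1.28 (SE 0.43, adjusted p = 0.119 in edgeR's quasi-likelihood test), and with the H2-Ea-ps term it was 1.33 (SE 0.34, adjusted p = 0.0195).

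Rpl10a, the protein of the L1 stalk beside the tRNA exit site, stood at 7.13, 4.92, 4.05 and 4.77 CPM at 6 °C and at 16, 7.39, 6.44 and 11.4 CPM at 29 °C. The ranges overlapped through library 1 at 6 °C, which holds H2-Ea-ps counts, and library 11 at 29 °C. With the H2-Ea-ps term it rose by 0.95 (SE 0.22, adjusted p = 0.0124, edgeR), and without that term the value was 0.97 (adjusted p = 0.18).

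Rps12, at the beak of the small subunit, stood at 2.95, 1.86, 1.67 and 1.51 CPM at 6 °C and at 5.63, 2.84, 2.67 and 3.25 CPM at 29 °C. It was the only other member past the threshold with the term (0.83, SE 0.25, adjusted p = 0.0437, edgeR), and the call was lost without library 11. That library stood apart in intestinal markers, which summed to 547 CPM there and to 12.6 to 40.3 CPM in the other 11. These 3 members were 4% of those tested, where 12.6% of all genes passed with the term, a larger share than among the members. Among only the libraries at 0 H2-Ea-ps counts none of these 3 was called. That fit called Rpl3 (higher at 29 °C) and Rpl41 (lower), which is 2.67% of members beside 9.91% of all genes.

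3 members had levels that did not overlap between 29 °C and 6 °C, all higher at 29 °C, where 13.3% of all tested genes did not overlap. They were Rpl12, at the base of the stalk, Rps19, whose human form is the gene most often mutated in Diamond-Blackfan anaemia, and Rpl27. Rpl12 lay at 2.23 to 3.10 CPM in the 6 °C libraries and at 3.82 to 5.71 CPM at 29 °C. The fitted value of Rpl27 was 1.04 (adjusted p = 0.34) and that of Rpl12 0.88 (adjusted p = 0.223), both by edgeR. At the other end, Rpl41 had -0.70, Rps26 -0.63, Rpl39 -0.61, Rps27l -0.41 and Rpl35 -0.29, none past the threshold in edgeR, with adjusted p between 0.274 and 0.721.

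The comparison of 29 °C with 22 °C sets thermoneutral against standard housing. With temperature alone, 0 members and 0 of all tested genes passed the threshold in edgeR's quasi-likelihood test (0% called), while 2241 genes and 16 members had an unadjusted p under 0.05. That is 21.3% of members against 14.9% of all tested genes, and 14 of these 16 members were higher at 29 °C. By DESeq2 6 members were called (Rpl3, Rpl7a, Rpl8, Rps14, Rps3 and Rps4x, all higher at 29 °C) and by limma voom 0, where these tools called 2.17% and 0.287% of all tested genes. The median of the 75 members was 0.23 on the log2 scale, with 53 above 0, against a median of -0.004 over all tested genes. In the marker lists 9 of 9 erythroid genes (median 1.22), 9 of 10 Kupffer cell genes (0.58) and 12 of 12 granulocyte genes (0.38) were above 0 and 0 of 8 hepatocyte genes. Also above 0 were 9 of 10 lymphocyte, 5 of 8 endothelial, 3 of 8 stellate cell and 3 of 5 bile duct genes. In these lists 0 genes were called, and the part of these cells was not tested.

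Rpl3, which reaches into the catalytic centre, gave the largest value. It stood at 6.00, 7.74, 5.68 and 7.76 CPM at 22 °C and at 9.11, 31.8, 23.0 and 39.2 CPM at 29 °C. All 4 libraries at 29 °C lay above all 4 at 22 °C, and library 9 was closest to them. The fold change was 1.92 (SE 0.44, adjusted p = 0.16, edgeR), and 1.49 (SE 0.35, adjusted p = 0.0409) with the H2-Ea-ps term.

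Rps14, a platform protein of the small subunit, stood at 8.49, 6.62, 22.1 and 20.9 CPM at 22 °C and at 27.0, 59.8, 57.6 and 71.0 CPM at 29 °C. The groups did not overlap, and the 22 °C group split into libraries 5 and 6, which were low, and libraries 7 and 8. Its fold change was 1.88 (SE 0.46, adjusted p = 0.163, edgeR), and with the term 1.86 (adjusted p = 0.0935).

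Rps19 stood at 4.98, 4.99, 16.9 and 17.8 CPM at 22 °C and at 22.0, 21.5, 24.5 and 26 CPM at 29 °C. The 29 °C libraries were close to each other and all higher, and libraries 5 and 6 were again the lowest. It had 1.06 (adjusted p = 0.241) without and 1.44 (SE 0.31, adjusted p = 0.0346, edgeR) with the term. Without libraries 5 and 6 the value for temperature alone was 0.44.

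With the H2-Ea-ps term, 7 members passed at 29 °C against 22 °C, which is 9.33% of members beside 3.44% of all tested genes. Higher at 29 °C were Rpl10a (1.17), Rps19, Rpl3, Rps3 (0.56), Rpl7a (1.08) and Rpl8 (0.66), where Rps3 lies at the mRNA entry of the small subunit. Rps2 was lower (-0.72, SE 0.16, adjusted p = 0.036, edgeR). Without library 11 only Rpl10a passed, and the share of all genes called fell to 0.657%, while the members' median was 0.40 in place of 0.38. No other library was left out of this fit. Of the 7 members, Rpl10a, Rpl7a, Rpl8 and Rps19 were at their lowest in libraries 5 and 6, and Rps2 at its highest. Libraries 5 and 6 held 3.14 and 3.16 CPM of Rpl10a, 4.15 and 6.01 of Rpl7a and 86.9 and 66.0 of Rpl8. Rpl3 and Rps3 had their lowest levels in other libraries. Without library 9, the temperature fit called 3 members (Rpl3, Rps3 and Rps4x), beside 0.51% of all genes. Among the libraries at 0 H2-Ea-ps counts 26 members were called, 19 higher and 7 lower, which is 34.7% beside 17.1% of all genes, but the 22 °C side of that fit is libraries 5 and 6 alone.

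Levels of 10 members did not overlap between 29 °C and 22 °C, which is 13.3% of members beside 7.68% of all tested genes. 8 were higher at 29 °C (Rpl7a, Rpl22, Rps19, Rps3, Rpl14, Rpl8, Rpl3 and Rps14). The 2 that were lower were Rpl23, a protein of the subunit interface, and Rpl39, a very small protein of the exit tunnel. Rpl23 had -0.63 (adjusted p = 0.227) and Rpl39 -0.78 (adjusted p = 0.267) in edgeR. Rpl29 (1.48), Rpl7a (1.04), Rps26 (-1.58), Rpl41 (-0.52) and Rpl6 (-0.33) were among the most extreme values, with adjusted p between 0.163 and 0.621.

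The comparison of 6 °C with 22 °C, cold against standard housing, gave a median near 0 for the family. In edgeR's quasi-likelihood test 0 members passed, with and without the H2-Ea-ps term, where 0.0333% and 0.367% of all tested genes passed without and with it. At an unadjusted p under 0.05 there were 6 members without and 10 with the term, which is 8% and 13.3% beside 11.9% and 15.7% of all tested genes. DESeq2 called 1 (Rps14) and limma voom 0, where they called 1.19% and 0.0267% of all tested genes. The median of the members was -0.02 and 35 of 75 were above 0, against a median of -0.02 over all tested genes.

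Rps14 had the highest value (1.42, SE 0.45, adjusted p = 0.281, edgeR), followed by Rpl29 (1.23), Rpl3 (1.05), Rplp0 (0.83) and Rps28 (0.70). Without libraries 5 and 6 the values were 0.87 for Rps14, 3.21 for Rpl29, 1.71 for Rplp0 and 3.94 for Rps28, and with pseudogene counts added Rpl29 had 0.56, none past the threshold. The 6 °C levels of Rps14 were 25.1, 46.8, 24.4 and 60.7 CPM, and all lay above its 22 °C levels. Among the lowest values were those of Rps26 (-0.95), Rpl9 (-0.62), Rps12 (-0.57) and Rpl10 (-0.54), of which none passed. Rps3 and Rps14 were higher and Rpl23 lower without overlap, which is 4% of members beside 6.33% of all tested genes. The 3 comparisons share groups of libraries with each other, so their values are not independent.

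**Figure D1:**
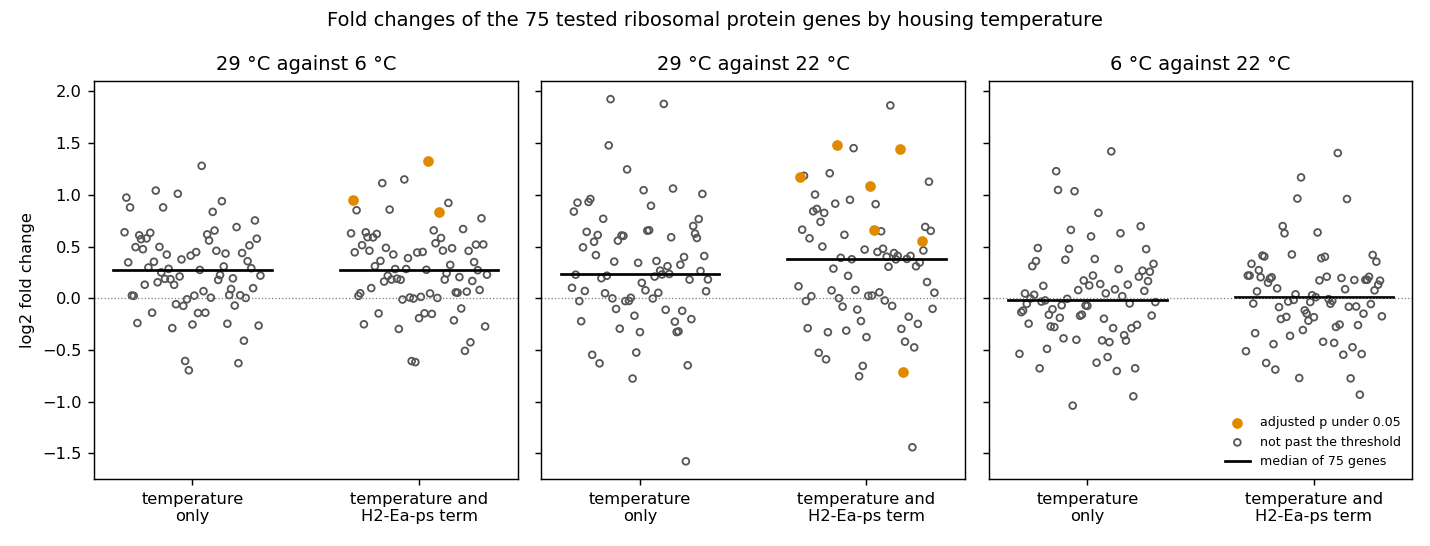
Log2 fold changes (vertical axis) of the 75 tested genes in the 3 temperature comparisons, each from the fit of temperature alone and from the fit with the H2-Ea-ps term. Each point is a gene, in alphabetical order from left to right, filled where the adjusted p is under 0.05, and the line is the median, at 0.27 and 0.23 in the panels with 29 °C and -0.02 at 6 °C against 22 °C for temperature alone.

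Far larger differences followed the presence of H2-Ea-ps counts. With temperature in the fit, 21 of 75 members differed between the 4 libraries that held these counts and the 8 that did not, 5 higher and 16 lower. Among all tested genes 22.6% passed (11.2% higher and 11.4% lower), and among members 28% (6.67% higher and 21.3% lower). The members therefore did not move as a block: their median coefficient was 0.11 on the log2 scale, against 0.03 over all tested genes. That median was -0.179 with a stricter count filter and -0.0048 without libraries 5 and 6. Levels of 14 members did not overlap between the sets, all lower with H2-Ea-ps counts, which is 18.7% of members beside 9.38% of all tested genes. Because the sets came from the counts, and because library 1 alone holds such counts at 6 °C and library 9 alone at 29 °C, what else separates the sets cannot be told apart from H2-Ea-ps.

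Rps2, a small-subunit protein near the mRNA entry that bears on decoding accuracy, differed most. It held 1.37, 1.47, 1.72 and 1.70 CPM in libraries 1, 7, 8 and 9, which are 19, 23, 23 and 22 counts. In the other 8 libraries it ran from 53.9 to 118 CPM with a median of 63.3. At each temperature the libraries with H2-Ea-ps counts lay far below the others, with no overlap. The mean was 1.56 ± 0.17 CPM (SD, n = 4 libraries) against 75.1 ± 26 (n = 8), and the coefficient was -5.73 (SE 0.19, adjusted p = 1.74e-11, edgeR). The gene lies at chr17:24718116-24721929 (GRCm38, plus strand, ENSMUSG00000044533.15), and its exons overlap Snhg9 on the opposite strand and Snora64 on its own.

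Because Rps2 was either near 1 or above 50 CPM, its means by temperature depended on how many libraries of a group held H2-Ea-ps counts. They were 46.0 ± 30.0 CPM at 6 °C, 59.0 ± 66.3 at 22 °C and 46.7 ± 30.8 at 29 °C (SD, n = 4 each), and the fold changes were 0.03, -0.33 and -0.36 with SE from 1.44 to 1.45. The 2 highest libraries were 5 and 6 at 22 °C, with 118 and 114 CPM, and without them the value for 29 °C against 22 °C turned to 4.87 (adjusted p = 0.556, edgeR).

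Rpl26, which sits by the exit of the nascent chain tunnel, held 0.504, 0.447, 1.19 and 0.772 CPM in libraries 1, 7, 8 and 9 (7, 7, 16 and 10 counts). The other 8 libraries ran from 10.9 to 20.9 CPM with a median of 14.5. The sets did not overlap, and the coefficient was -4.53 (SE 0.25, adjusted p = 8.75e-09, edgeR). Rpl26 lies at chr11:68901583-68906989 (plus strand).

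Rps28, a 40S protein near the mRNA exit, lies on the same chromosome as Rps2, at chr17:33819027-33824562 (minus strand), where its exons overlap Kank3 on the opposite strand. It held 0.792, 0.575, 1.19 and 2.08 CPM in libraries 1, 7, 8 and 9 and 13.9 to 19.7 CPM in the other 8, with a median of 17.5. The sets lay apart, with a coefficient of -3.85 (SE 0.26). Whether reads of Kank3 entered these counts was not tested. Of the other 5 tested members on chromosome 17, Rps18 was lower with no overlap (-0.86) and Rpl10a higher (1.02, adjusted p = 0.0019, edgeR). Rpl36 (0.66), Rps10 (0.55) and Rpl7l1 (-0.18) did not pass.

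Rplp0, the scaffold protein of the stalk, fell less and from a higher level. Its levels were 36.5, 35.9, 28.2 and 34.7 CPM in libraries 1, 7, 8 and 9 and at 75.8 to 136 CPM in the other 8, with a median of 128. The coefficient was -1.68 (SE 0.13). The stalk proteins that bind Rplp0 went other ways: Rplp2 was higher with H2-Ea-ps counts (12.2, 17.1, 16.1 and 17.4 CPM, against 4.15 to 15.2, coefficient 1.08, adjusted p = 0.0035, edgeR), and Rplp1 had 0.26 and did not pass.

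Rpl29, a peripheral protein of the large subunit, held 0.576, 0.192, 0.597 and 0.617 CPM in libraries 1, 7, 8 and 9, from 3 to 8 counts, and 2.12 to 6.14 CPM in the other 8 (-2.98, SE 0.32). Rpl35a, another gene of Diamond-Blackfan anaemia in people, held 4.03, 4.60, 6.42 and 6.02 CPM against 13.8 to 20.5 (-1.62, SE 0.18). Neither gene's levels overlapped between the sets.

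Rpl37a (-1.22), Rpl41 (-1.25), Rpl3 (-1.02), Rps18 (-0.86), Rps20 (-0.74), Rps9 (-0.58), Rpl7 (-0.56) and Rps26 (-2.04) were among the other members lower with H2-Ea-ps counts. Rpl41, the smallest ribosomal protein, and Rpl3 overlapped between the sets. The call of Rpl3 was lost on leaving out library 1, 2, 7, 9 or 10. On the higher side were Rpl11 (1.10, adjusted p = 0.0314, edgeR), which with Rpl5 carries the 5S RNA and binds Mdm2, Rplp2, Rpl10a, Rpl22l1 (0.82) and Rps12 (0.68). All 5 of these overlapped between the sets. The call of Rpl11 was lost with pseudogene counts added (0.76, adjusted p = 0.0778, edgeR) and on leaving out library 1, 5, 6 or 8. That of Rps12 was lost with pseudogene counts added and on leaving out library 1, 3, 5, 8, 9, 10 or 11, and that of Rpl22l1 without library 9. Without libraries 5 and 6, 16 members were called, 1 higher (Rpl10a) and 15 lower. Of these 16, 14 were among the 21, and Rps14 and Rps3a1 were newly called lower. The 16 are 20.8% of members beside 12.6% of all genes. Among those no longer called were Rps20, Rps26 (-1.25, adjusted p = 0.0721, edgeR), Rplp2 (0.71), Rpl11 (0.82) and Rpl22l1 (0.82).

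**Figure D2:**
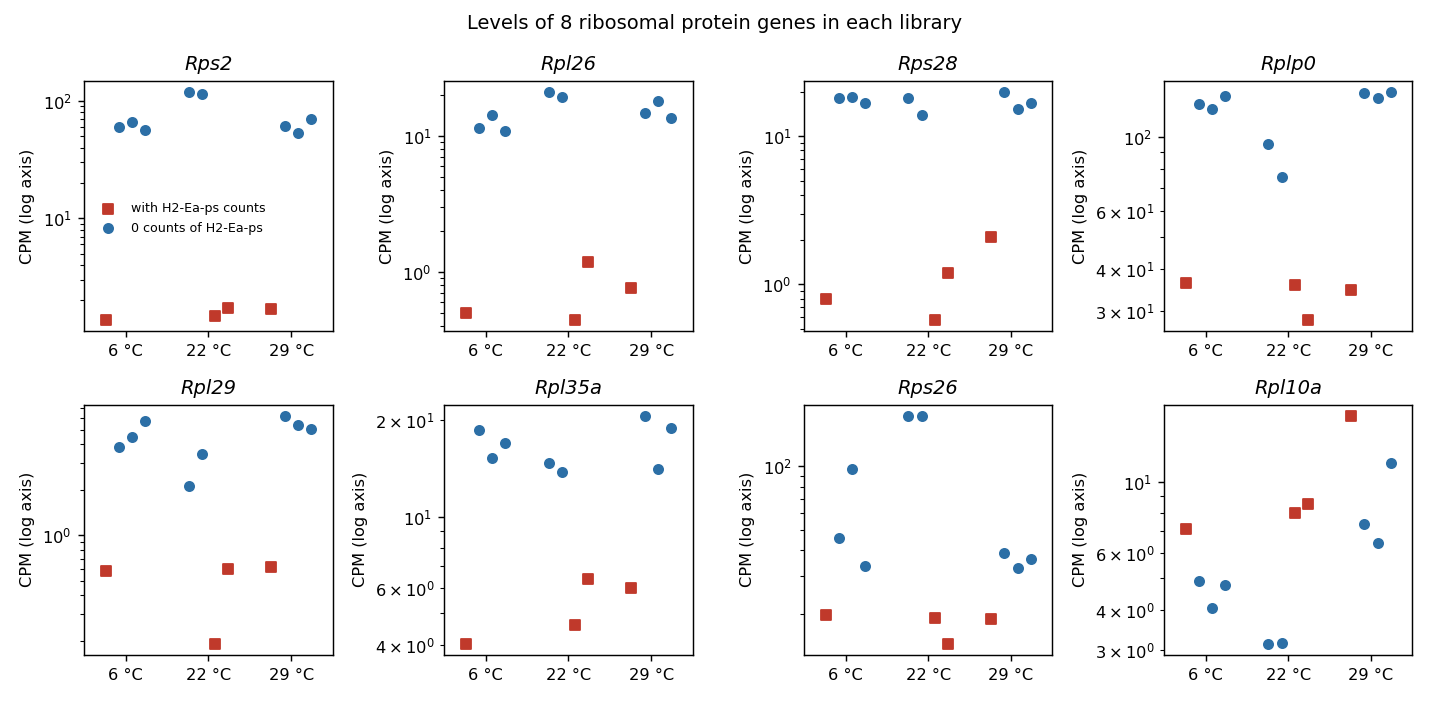
Levels of 8 genes in CPM on log axes, by housing temperature, with libraries in numerical order from left to right within a temperature. Squares are the 4 libraries with H2-Ea-ps counts and circles the 8 with 0 counts: for Rps2, Rpl26, Rps28, Rplp0, Rpl29, Rpl35a and Rps26 all squares lie below all circles, while Rpl10a overlaps.

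**Figure D3:**
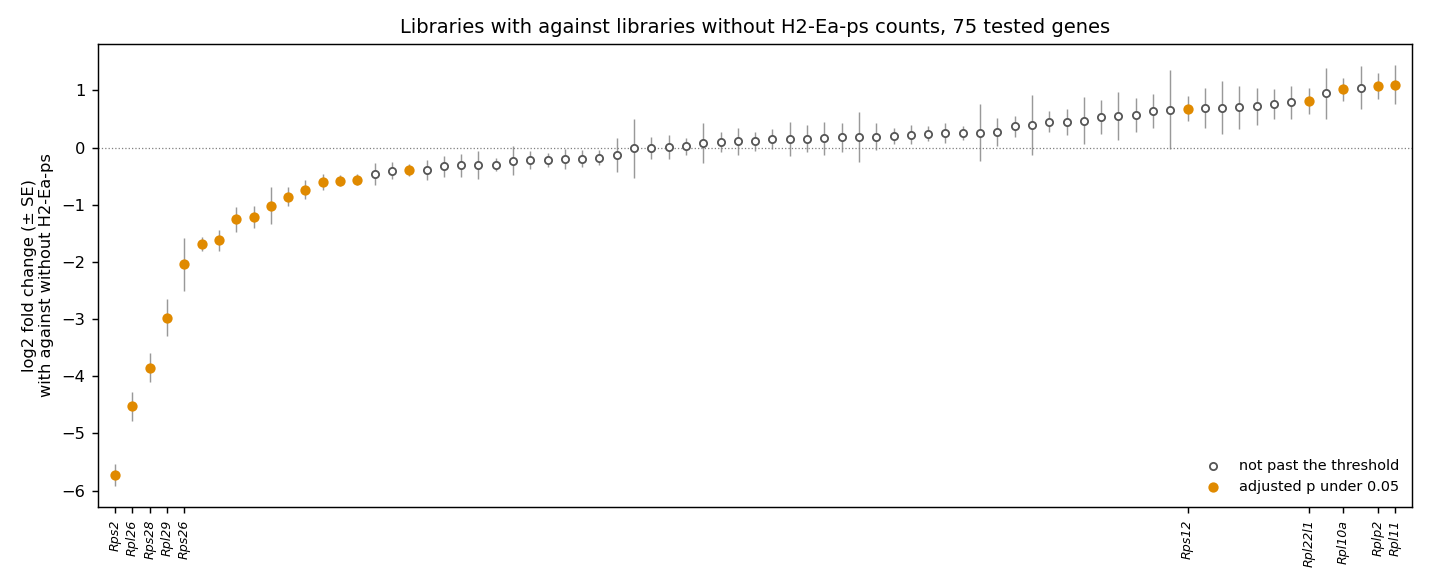
Log2 fold change (± SE) of each of the 75 tested genes, of the 4 libraries holding H2-Ea-ps counts over the 8 at 0, with temperature in the fit, in ascending order, with the 5 lowest and the 5 called higher named. Filled points have an adjusted p under 0.05: 16 genes lie below 0, led by Rps2 at -5.73, and 5 above 0, up to Rpl11 at 1.10.

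Pseudogene copies of the members were counted in the same libraries. In the annotation, 568 pseudogenes of any class shared at least 50 of the 50-base words of a member, for 77 of the 85 members, and 341 of them held any count. Together they held 6325 counts. Of the 10 that passed the low-count filter, 3 were called higher with H2-Ea-ps counts in edgeR's test and 0 lower. Among all tested genes 11.2% were called higher and 11.4% lower. All 3 are copies of the 2 genes Rplp0 and Rpl26, which fell. Gm8730 and Gm15772 passed the filter only through the libraries with H2-Ea-ps counts, where they were high. The direction of their calls was thus set by the filter, and this tally is a description only.

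Gm8730 (chr8:102864845-102865798, minus strand), a copy of Rplp0, held 176, 206, 150 and 139 counts in libraries 1, 7, 8 and 9 and 0 to 2 in the other 8. All 4 libraries with H2-Ea-ps counts lay far above the other 8. Gm15772 (chr5:3236431-3236868, plus strand), a copy of Rpl26, held 63, 65, 40 and 56 counts in those libraries and 0 to 2 in the others. Fitted coefficients of Gm8730 and Gm15772 are left out, since the filter set their direction. Gm9625, another copy of Rplp0 on chromosome 13, held 46, 50, 30 and 38 counts against 0 to 24 (coefficient 2.52, adjusted p = 0.011, edgeR).

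The sequences show how little separates gene and copy within the coding bases of the gene. Over all annotated transcripts, 22.7% of the 50-base words of Rpl26 and 33.1% of those of Rplp0 occurred in another annotated gene. The pairs were taken from the pseudogenes called higher with H2-Ea-ps counts, so they are no sample of all copies. Rpl26 and Gm15772 aligned over 438 coding bases with 2 mismatches and no gap, and Rplp0 and Gm8730 over 954 coding bases with 12 mismatches and no gap. Rplp0 and Gm9625, not printed below, aligned over 955 positions with 24 mismatches and 1 gap base. The stretches below are 75 coding bases each, base 140 to 214 for Rpl26 and base 381 to 455 for Rplp0, taken from GENCODE release M21 (GRCm38). Each was chosen as a gap-free stretch of that length with the most differences, so other stretches differ by as many letters or fewer. The stretches are shown because a read from them is assigned to gene or copy by few letters. Capitals mark the letters that differ.
Rpl26: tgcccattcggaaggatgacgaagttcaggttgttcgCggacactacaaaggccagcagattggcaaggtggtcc
Gm15772: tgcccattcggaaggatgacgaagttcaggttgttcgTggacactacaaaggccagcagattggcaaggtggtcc
Rplp0: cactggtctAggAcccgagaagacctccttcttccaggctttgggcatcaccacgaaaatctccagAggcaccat
Gm8730: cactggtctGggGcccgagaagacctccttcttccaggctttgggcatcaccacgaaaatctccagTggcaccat

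Adding the counts of such pseudogenes to the member that shares most words with them narrowed the difference for some genes. For Rpl26 the sum was 5.12 CPM with and 15.5 CPM without H2-Ea-ps counts, where the gene alone had 0.729 and 15.4. For Rplp0 the sum was 49.3 against 120 CPM, where the gene alone had 33.9 and 119. For Rps2 it was 5.91 against 79.2 CPM and for Rps28 1.24 against 17.2. For Rpl29 the sum was 2.09 against 6.46 CPM, where the gene alone had 0.496 and 4.52. The summed values stayed lower with H2-Ea-ps counts for all 5 genes, with coefficients of -1.63, -1.16, -3.85, -3.77 and -1.53 and adjusted p of 9.49e-05 or less in edgeR. Of the copies of Rps2 that were tested, Gm12176 had 1.69 (adjusted p = 0.109) and Gm7143 0.02 (adjusted p = 0.981). Whether reads of the same transcripts were placed differently in the 2 sets was not tested, since the reads were not used here.

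**Figure D4:**
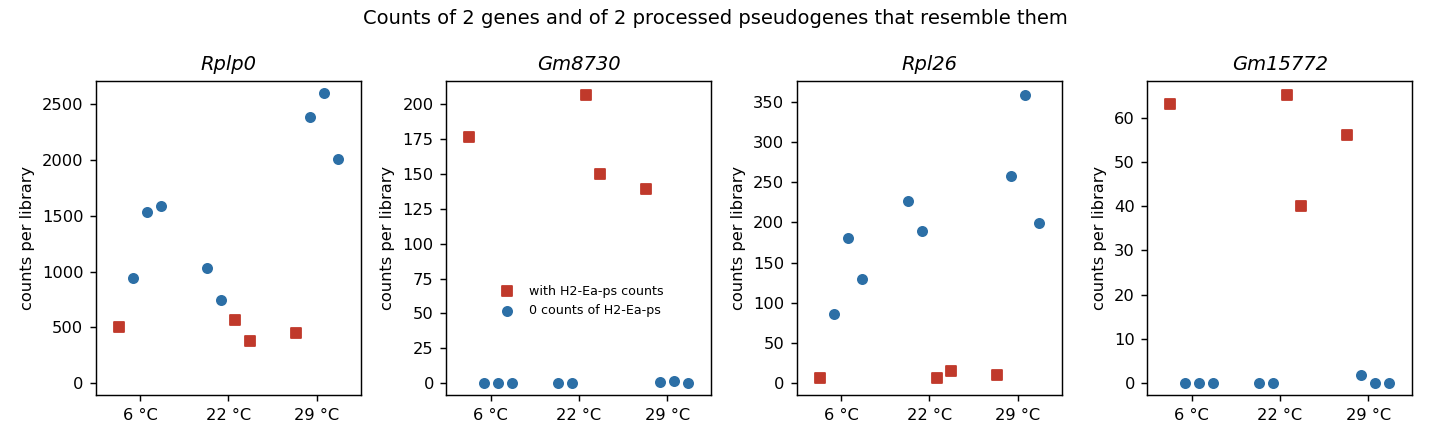
Counts per library (linear axes) of Rplp0 and Rpl26 and of the processed pseudogenes Gm8730 and Gm15772, by housing temperature, with libraries in numerical order from left to right. The pseudogenes hold 40 to 206 counts in the 4 libraries with H2-Ea-ps counts (squares) and 0 to 2 in the other 8 (circles), and the genes are at their lowest in the squares.

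Libraries 5 and 6 carried a further pattern within the 22 °C group. Rps26, a 40S protein that contacts the mRNA upstream of the start codon, stood at 173 and 173 CPM in libraries 5 and 6 and at 97.0 in library 3. It ran from 32.7 to 45.6 CPM in the other 5 libraries without H2-Ea-ps counts and stood at 19.7, 19.1, 14.4 and 18.8 CPM in libraries 1, 7, 8 and 9. The 3 libraries lowest in Gm26917 were thus the 3 highest in Rps26. Without libraries 5 and 6 its fold change for 29 °C against 22 °C turned from -1.58 to 0.92 and for 6 °C against 22 °C from -0.95 to 1.55, none past the threshold.

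Rps20 in libraries 5 and 6 (56.4 and 55.8 CPM) also lay above all 10 others (18.6 to 35.8). Rps14, at 8.49 and 6.62 CPM, and Rps19, at 4.98 and 4.99 CPM, were lowest there. Rpl3 was low in libraries 5 and 6 (6.00 and 7.74 CPM) as it was in libraries 1, 7, 8 and 9 (5.68 to 9.11), and above 11 CPM in the other 6. In library 3, Rps14 (24.4 CPM), Rps19 (12.6 CPM) and Rpl3 (11.8 CPM) were the lowest of the 6 °C libraries without H2-Ea-ps counts. What sets these libraries apart was not tested.

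**Figure D5:**
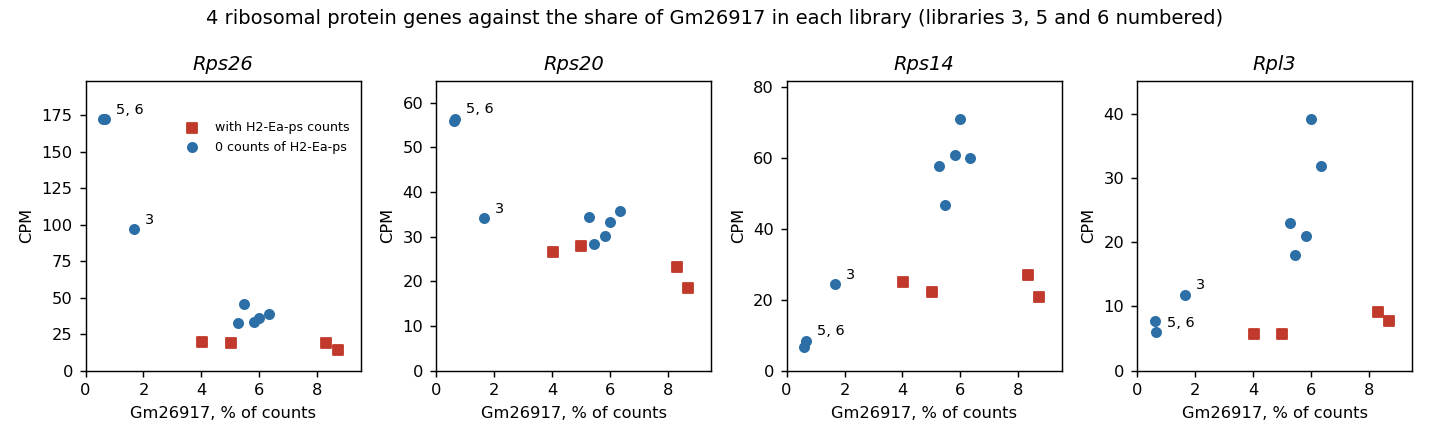
Levels of Rps26, Rps20, Rps14 and Rpl3 (CPM, linear axes) against the percent of counts taken by Gm26917 in each of the 12 libraries. Libraries 5 and 6, below 1% Gm26917, hold the highest Rps26 and Rps20 and the lowest Rps14, and squares mark the 4 libraries with H2-Ea-ps counts.

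Pyrimidine runs were looked for around the annotated starts of transcription. RefSeq start sites (GRCm38.p6) matched 65 of the 85 members, with 77 starts in all. In the window from 20 bases before to 20 bases after the start, a run of at least 8 pyrimidines was found on the sense strand in 40.3% of member starts and in 16% of the 32851 starts of all genes. The start base itself was C in 29.9% of member starts and in 16.3% of all. These are shares of annotated starts, and the starts used in these livers were not measured. The word CTTTC, which can be part of such a run, was found on that strand in 26% and 5.49%. Within 300 bases around the start, CCGGAAG or its reverse complement CTTCCGG was found in 33.8% against 8.86%. The 5 windows below belong to the members with the lowest H2-Ea-ps coefficients among those matched to a start (Rpl29 was not matched). The longest pyrimidine run is in capitals, and the runs differ in length and place.
Rps2 (chr17:24720043-24720082, plus strand): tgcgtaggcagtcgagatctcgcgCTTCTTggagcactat
Rpl26 (chr11:68901546-68901585, plus strand): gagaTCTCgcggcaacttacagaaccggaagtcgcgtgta
Rps28 (chr17:33824543-33824582, minus strand): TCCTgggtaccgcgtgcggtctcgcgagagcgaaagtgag
Rps26 (chr10:128626487-128626526, minus strand): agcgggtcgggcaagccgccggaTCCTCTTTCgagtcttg
Rplp0 (chr5:115559447-115559486, plus strand): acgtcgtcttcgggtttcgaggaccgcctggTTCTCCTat

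By role within the ribosome, the 5S particle (Rpl5 and Rpl11) had 1 of 2 members called higher with H2-Ea-ps counts. Of the stalk, 1 of 3 was higher (Rplp2) and 1 lower (Rplp0). The 8 tested proteins at the exit tunnel had 1 called, Rpl26. Of 17 tested genes known from Diamond-Blackfan anaemia, 4 were lower (Rpl26, Rps28, Rps26 and Rpl35a) and 1 higher (Rpl11). These groups hold few genes, and in the same fit 22.6% of all tested genes and 28% of members were called. The calls of Rps26 and Rpl11 were lost without libraries 5 and 6, and that of Rpl11 also with pseudogene counts added. By temperature alone none of these role groups held a call, against the shares of all genes given above.

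Paralogs did not follow their partners in every case. Rpl22l1 was called higher with H2-Ea-ps counts (0.82, adjusted p = 0.0171, edgeR), while Rpl22 had 0.25 and did not pass (adjusted p = 0.217). Rpl7 was called lower (-0.56), and its relative Rpl7l1 had -0.18 (adjusted p = 0.348, edgeR). The 2 differences between partners were not tested. Rpl36al had 0.70 and Rpl36a 1.05, and neither passed. Per kilobase, Rps27l, a p53-induced copy, stood at 27.2 CPM and Rps27 at 0.83, so the copy was the higher of the pair in this liver RNA as counted.

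Genes that work with the ribosome gave few calls by temperature. A list of 4 subunit genes outside the naming rule had 0 calls by temperature in edgeR, and with H2-Ea-ps counts Fau was higher (2.08, adjusted p = 0.0015). Of 30 assembly factors, Gnl3, a nucleolar GTPase, was higher at 29 °C than at 6 °C (0.91, SE 0.17, adjusted p = 0.021, edgeR), and 27 of the 30 were above 0, with a median of 0.17. With the H2-Ea-ps term Nop56, Nop58, Nop2, Gnl3 and Rrp12 passed, all higher at 29 °C. Of all tested genes 2.53% passed without and 12.6% with the term. In libraries with H2-Ea-ps counts 4 of the 30 were higher (Ncl, Nop56, Gar1 and Rrs1) and 1 lower (Polr1b), where 22.6% of all tested genes passed.

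The 20 translation factors and related pyrimidine-start mRNAs had 0 calls by temperature alone. With H2-Ea-ps counts 3 were higher (Npm1, Hnrnpa1 and Nap1l1) and 5 lower, among them Eef1a1, the elongation factor that brings aminoacyl-tRNA (-0.58, SE 0.13, adjusted p = 0.004, edgeR). For H2-Ea-ps counts 22.6% of all tested genes passed, which applies to each list here. Of 18 genes of mTOR control, 0 passed by temperature alone. With the term, Deptor, an inhibitor of mTOR, was lower at 29 °C than at 6 °C (-0.69, adjusted p = 0.0043), Tsc1 was lower and Mtor itself higher (0.46, adjusted p = 0.0484, edgeR). Of all tested genes 12.6% passed in that comparison. At 29 °C against 22 °C with the term, 1 assembly factor, 1 translation factor and 1 gene of mTOR control were higher, beside 3.44% of all tested genes called. Larp1, which binds pyrimidine-start mRNAs, was lower with H2-Ea-ps counts (-0.49, adjusted p = 0.0057, edgeR), as were Tsc2 and Deptor. The 11 non-coding hosts of small nucleolar RNAs had 0 calls by temperature and 2 higher with H2-Ea-ps counts, Snhg3 and Snhg6.

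The genes whose level was most like the median log2 level of the members over 12 libraries were Tmem222 (Pearson r 0.95), Puf60 (0.93), Rnf225 (0.92), Calm3 (0.90) and Hbb-bt (0.90). These are given as a description, and the points share library and depth. In bulk liver RNA, fewer cells of a type and less RNA per cell cannot be told apart. Markers of other cells moved with the same sets of libraries: 9 of 12 granulocyte markers were higher with H2-Ea-ps counts, with a summed level of 1053 to 3442 CPM against 16.8 to 1034 in the other 8. Of the tested markers 5 of 10 lymphocyte, 5 of 10 Kupffer cell, 4 of 9 erythroid and 4 of 8 hepatocyte genes were lower, and 4 of 8 stellate cell genes were higher. Their part in the ribosomal protein differences was not tested.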

How the data were processed

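The authors deposited counts per gene, whole numbers without normalization, for 12 libraries of ribosomal-RNA-depleted total RNA (3 temperatures, 4 libraries each). Per the submitters' processing notes, bcl2fastq, STAR 2.6.1a and DESeq2 1.44.0 were used, and the build was GRCm38. Which program counted the reads, and how it handled strand and reads with several matches, was not stated.

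Counts were tested with edgeR 4.0.16 in R 4.3.3 (TMM, filterByExpr, robust quasi-likelihood fit, two-sided, Benjamini-Hochberg adjustment over 15006 genes, threshold 0.05), on all 12 libraries with 9 residual degrees of freedom and a common biological coefficient of variation of 0.321. A further fit (8 degrees of freedom) added a term for the libraries whose H2-Ea-ps level reached 1 CPM. Each SE is the absolute log2 fold change divided by the square root of the quasi-likelihood F, so it is derived from the test. CPM use TMM-scaled library sizes; each library's limit for a count of 0 uses its total. Exon lengths, positions, transcripts and pseudogenes are from GENCODE M21 (54673 identifiers matched). Alignments used Biopython 1.88. Alternatives included limma 3.58.1 (voom) and DESeq2 1.42.0, and the edgeR fit was tested on simulated data.

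Named genes were Rps2, the 5 highest and 5 lowest members with a mean of at least 1 CPM in each comparison, the called members with the 8 lowest p, paralogs, the 3 highest and 3 lowest per kilobase and the 5 genes most like the members. Members that were called in other fits, that did not overlap or that differed in libraries 5 and 6, and the genes of the pathway lists, were named after their values were seen. Values of a few genes are left out of the text. The members and lists were chosen with earlier results of these data known.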

Additional observations from a re-analysis of the deposited data

Results flagged for a closer look

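Among 105 series of 4 values (single genes, or the summed share, within a temperature), 7 held a value that stood apart from the other 3 by Dixon's ratio; chance gives about 1 in 20. In library 1, the only 6 °C library with H2-Ea-ps counts, Rps2 was 1.37 CPM (the other 3 at 56.7 to 65.8), Rplp0 36.5 CPM, Rps28 0.792 CPM and the members' share of all counts 0.153%. In library 9, the only 29 °C library with such counts, Rplp0 was 34.7 CPM against 131 to 136. Rpl7a stood apart in library 4 at 6 °C, with 14.97 CPM against 8.90 to 9.57. Rpl35 stood apart in library 5 at 22 °C, with 5.35 CPM against 2.36 to 2.61.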

How the results depend on the processing

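Results were recomputed under 26 alternatives where these applied, of which leaving out libraries 5 and 6 and adding pseudogene counts were chosen after seeing the data. No paired analysis was possible because the labels give the groups no shared replicate numbers. Members called numbered 0 for 29 °C against 6 °C, and 1 with DESeq2, 3 with the H2-Ea-ps term, 2 with the term but without library 11, and 2 among libraries at 0 H2-Ea-ps counts. Of all tested genes 2.53%, 7.97%, 12.6%, 8.58% and 9.91% were called in those settings, in that order. For 29 °C against 22 °C the 0 became 6 with DESeq2, 7 with the term, 1 with the term without library 11 and 26 among libraries at 0 H2-Ea-ps counts, and leaving out each library gave 0 to 3. For 6 °C against 22 °C it became 1 with DESeq2 and 10 among libraries at 0 H2-Ea-ps counts (13.3% of members), where 1.19% and 6.69% of all tested genes were called. In the fits on libraries at 0 H2-Ea-ps counts the 22 °C side is libraries 5 and 6 alone. Calls over all genes moved with these: for 29 °C against 22 °C they were 0, and 325, 516, 100 and 2594 in the settings just listed for it. The members' median moved to 0.186 with the stricter filter (29 °C against 6 °C). For 29 °C against 22 °C it was 0.376 with the term and 0.400 with the term without library 11, and from 0.162 to 0.376 leaving out each library. For 6 °C against 22 °C it ran from -0.038 to 0.066 leaving out each library. For the H2-Ea-ps libraries it was -0.179 with the stricter filter and -0.0048 without libraries 5 and 6. Rps2 changed sign: leaving out each library gave -0.38 to 0.43 (29 °C against 6 °C), -0.74 to 0.27 (29 °C against 22 °C) and -0.77 to 0.24 (6 °C against 22 °C). In the comparisons with 22 °C limma voom gave Rps2 1.59 (29 °C) and 1.38 (6 °C), and leaving out libraries 5 and 6 gave 4.87 and 4.85. Without those libraries Rps26 turned to 0.92 (29 °C) and 1.55 (6 °C), Rpl41 to 0.53 and Rpl6 to 0.11 (29 °C). None of these single-gene reversals passed the threshold, and the cause was not tested. Members with a mean under 10 counts are limited by depth.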
